A study of Mus musculus with 58 samples.

Results

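The 10 genes followed here mark the epithelium of the choroid plexus, and were measured in striatal tissue of mice with a heterozygous deletion. They were *Ttr*, *Otx2*, *Kl*, *Folr1*, *Clic6*, *Enpp2*, *Sostdc1*, *Aqp1*, *Kcne2* and *Calml4*, 10 of 54532 genes in the RNA-seq tables and of 18411 genes in the lysate tables, and all 10 were listed in both. They are textbook markers that were selected on the levels measured in these same libraries, since earlier results had shown *Ttr* to vary between them, so their levels per library are given as a description. The genotype comparisons use the same libraries, and their p-values describe these libraries and are no independent evidence. The RNA-seq data were 32 striatal libraries of young adult mice, with 4 libraries for each combination of line, sex and genotype. The 3g del/+ mice carry CRISPR/Cas9 mutations on 1 copy each of *Taok2*, *Sez6l2* and *Mvp*, and the 16p11.2 del/+ mice lack 1 copy of the whole 16p11.2 homologous interval, in every cell in both lines, and each line was compared with its own wild-type (wt) littermates. A second set held ribosome footprints (mRNA fragments protected by ribosomes) and RNA from the same striatal lysate of 13 male mice, with 3 del/+ and 3 wt animals of the 3g line and 3 del/+ and 4 wt animals of the 16p11.2 line. The labels give the strain as B6129S for all libraries, RNA-seq libraries are named here by the numbers in the labels, and lysate animals of each line and genotype are numbered from 1 by their label numbers, lowest first.

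The choroid plexus is a folded tissue inside the brain ventricles whose epithelium secretes cerebrospinal fluid. The lateral ventricle, which holds such a fold, borders the striatum, so that a dissection of striatum can carry along choroid plexus. Its epithelium makes transthyretin, the thyroid hormone and retinol carrier encoded by *Ttr*, at very high levels, and *Ttr* transcripts are a familiar sign of choroid plexus in samples of neighbouring brain regions. *Otx2* encodes the homeodomain transcription factor on which the epithelium depends. *Aqp1* (a water channel), *Kcne2* (a potassium channel subunit) and *Clic6* (a chloride channel family member) serve ion and water transport, *Folr1* encodes a folate receptor that carries folate into the cerebrospinal fluid, *Kl* encodes klotho, a co-receptor of FGF23, and *Sostdc1* a secreted antagonist of BMP and Wnt signalling. *Calml4* encodes a calmodulin-like protein. *Enpp2* encodes autotaxin, which makes lysophosphatidic acid, and is also made by oligodendrocytes, so that in striatum it is not particular to choroid plexus. Levels are given as CPM, that is counts relative to the total of the library, scaled with TMM over all libraries of an assay, and are compared between libraries for 1 gene at a time. In bulk tissue, fewer cells of a type and less RNA per cell cannot be told apart.

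Upstream sequences are shown for *Kl*, *Aqp1* and *Kcne2*, which shared their 2 highest libraries with *Ttr* in the 16p11.2 line as described below, and for the window of *Otx2* that held a homeodomain motif. The 250 bases before a RefSeq start in GRCm38.p6 were searched for TAATCC, the core sequence that OTX factors bind, on both strands (TAATCC and GGATTA). Of 32851 such windows, 6.25% held the motif. Windows were matched for 5 of the 10 genes, 9 windows in all, and 1 of them, a window of *Otx2* itself, held it. The 4 sequences are written 5′ to 3′ on the strand of the gene, in lower case with the motif in capitals.
Otx2, chr14:48665110-48665359, minus strand: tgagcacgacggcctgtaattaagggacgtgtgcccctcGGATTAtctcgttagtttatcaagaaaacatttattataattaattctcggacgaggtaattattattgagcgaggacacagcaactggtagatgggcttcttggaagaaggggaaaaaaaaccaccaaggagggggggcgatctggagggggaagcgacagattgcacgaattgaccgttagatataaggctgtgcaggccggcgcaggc
Kl, chr5:150952357-150952606, plus strand: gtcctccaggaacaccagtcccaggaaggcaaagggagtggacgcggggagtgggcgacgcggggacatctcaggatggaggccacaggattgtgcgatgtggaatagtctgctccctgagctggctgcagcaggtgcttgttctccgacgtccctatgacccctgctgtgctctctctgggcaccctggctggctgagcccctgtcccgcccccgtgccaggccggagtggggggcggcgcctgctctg
Aqp1, chr6:55336049-55336298, plus strand: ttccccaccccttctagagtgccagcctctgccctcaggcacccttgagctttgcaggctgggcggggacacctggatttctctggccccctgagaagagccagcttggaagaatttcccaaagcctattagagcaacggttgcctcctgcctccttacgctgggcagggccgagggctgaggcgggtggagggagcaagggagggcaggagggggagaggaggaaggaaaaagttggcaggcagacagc
Kcne2, chr16:92292139-92292388, plus strand: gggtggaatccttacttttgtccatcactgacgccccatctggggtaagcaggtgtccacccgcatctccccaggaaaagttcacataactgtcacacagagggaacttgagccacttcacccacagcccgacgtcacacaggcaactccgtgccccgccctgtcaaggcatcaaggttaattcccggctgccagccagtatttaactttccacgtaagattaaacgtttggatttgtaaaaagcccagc
The windows of *Kl* and *Aqp1* were 66.8% and 62% G and C, against a median of 52.4% over all windows, and that of *Kcne2* was at the median. The *Kl* window held 13 CpG pairs and the *Aqp1* window 5, with a median of 6 over all windows. A motif match is a description of the letters, and none of the assays measured binding.

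Some libraries need a word before the values. Total counts ran from 11711099 to 65529807 in the RNA-seq libraries, from 15102576 to 19122488 in the lysate RNA and from 342052 to 678130 in the footprints. Before TMM scaling, 3 counts thus correspond to between 4.42 and 8.77 CPM in a footprint library. The library labelled 16p11.2 del/+ female 1 went against its label, with *Xist* at 0.463 CPM against at least 324 CPM in the other 15 female libraries, and *Ddx3y* at 38.6 CPM, within the 30.2 to 52.4 CPM of the 16 male libraries. The library labelled 3g wt male 17 stood apart within its line for *Clic6* and *Kl*, and not for these genes alone. Its cortical excitatory neuron genes summed to 1088 CPM, against at most 766 CPM in the other groups of the line. That sum was inside the 914 to 1552 CPM of the 16p11.2 libraries. The main results that rest on these libraries are given with and without them.

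*Ttr* varied more between libraries than almost any other gene. Its SD on the log2(CPM + 1) scale was 1.23 over the 16 libraries of the 3g line and 2.03 over the 16 of the 16p11.2 line, in place 8 and place 6 of the 14581 genes with a mean of at least 1 CPM in each line. Without the library labelled 16p11.2 del/+ female 1, the second SD was 1.79, in place 8, and without 3g wt male 17 the first was 1.21, in place 7. The lowest value was 0.0279 CPM, from 1 count, in the library labelled 16p11.2 del/+ female 4, and the highest was 97.8 CPM, from 3589 counts, in the library labelled 16p11.2 del/+ female 1.

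The 4 del/+ females of the 16p11.2 line had *Ttr* at 97.8, 5.93, 9.80 and 0.0279 CPM (numbers 1 to 4). The 4 wt females had 0.468, 15.8, 4.76 and 60.2 CPM. Both groups spanned low and high values and overlapped over most of their range. Among males, the wt libraries had 0.114, 7.90, 11.4 and 13.1 CPM. The del/+ males had 7.93, 0.198, 1.29 and 0.451 CPM. Of the wt males, 3 were thus near or above the highest del/+ male, and the remaining wt male was below all of them.

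In the 3g line the range was narrower. The wt males 17, 24, 26 and 34 had *Ttr* at 7.64, 0.880, 1.21 and 0.0821 CPM, and the del/+ males 25, 27, 32 and 33 had 1.46, 13.0, 7.78 and 1.44 CPM. The males overlapped. The wt females 29, 30, 35 and 39 had 3.23, 4.08, 1.93 and 11.6 CPM. The del/+ females 28, 31, 36 and 37 had 0.620, 0.0613, 0.156 and 1.54 CPM, all below the lowest wt female.

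*Otx2* was low in every library, at 36 counts or fewer. In 3g females the del/+ libraries 28, 31, 36 and 37 had 0.124, 0.0307, 0 and 0.131 CPM. The wt libraries 29, 30, 35 and 39 had 0.258, 0.293, 0.506 and 0.344 CPM, again without overlap. In the 16p11.2 line the highest *Otx2* values were 0.890 CPM in del/+ male 2 and 0.625 CPM in wt male 1. In both of these libraries *Ttr* was near its floor, at 0.198 and 0.114 CPM.

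**Figure D1:**
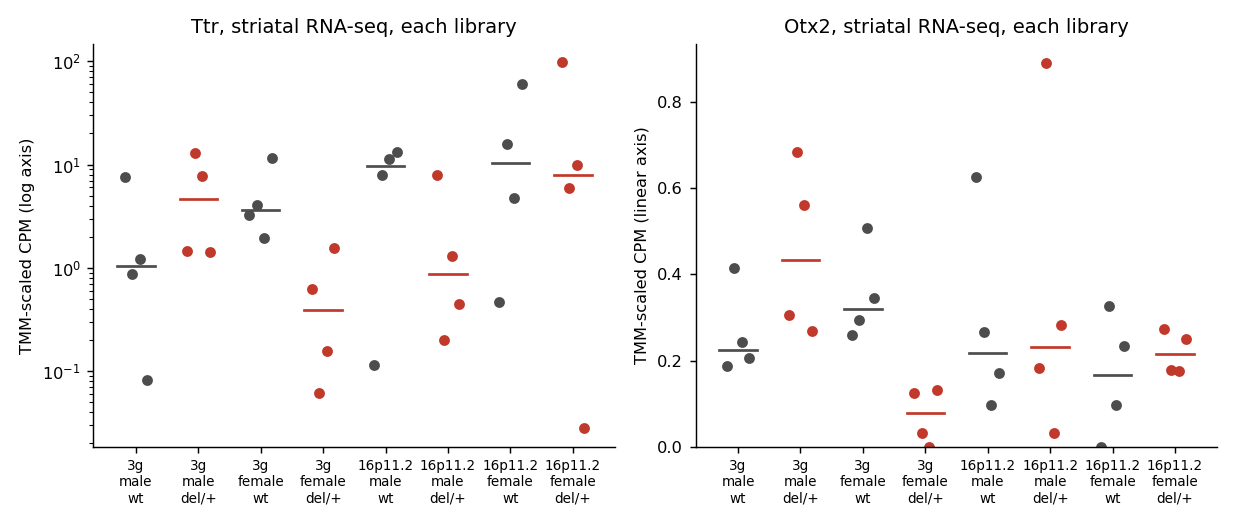
Ttr (left, log axis) and Otx2 (right, linear axis) in TMM-scaled CPM in each of the 32 striatal RNA-seq libraries, by line, sex and genotype, with wt in grey, del/+ in red and a bar at the median of each 4. The 3g del/+ females lie below the 3g wt females for both genes, while Ttr in 16p11.2 females runs from 0.0279 to 97.8 CPM within the del/+ group.

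The genes rose together in 2 libraries of the 16p11.2 line, and only in part. The libraries with the 2 highest *Ttr* values were those labelled del/+ female 1 and wt female 4, so that both genotypes were represented by label. The first is the library whose sex markers went against its label, and its genotype label was not tested. Both also held the 2 highest of 16 values for *Kl*, *Folr1*, *Aqp1* and *Kcne2*, which makes 5 of the 10 genes with *Ttr* included. *Ttr* counts by construction, since the pair was chosen by its values. Among all 27896 genes with at least 10 counts over the line, 0.721% had their 2 highest values in these 2 libraries. Without the library labelled del/+ female 1, wt female 4 held the highest of 15 values for 6 of the 10 genes, the same 5 and *Sostdc1*, against 3.72% of all genes. Here too *Ttr* counts by construction.

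*Folr1* was at 0.790 CPM (29 counts) in del/+ female 1 and 0.911 CPM (35 counts) in wt female 4, and between 0.0260 and 0.653 CPM in the other 14 libraries. *Aqp1* was at 1.06 and 1.07 CPM, against 0.193 to 0.740 CPM. *Kl* was at 4.82 and 3.57 CPM, against 1.06 to 3.51 CPM. The margin over the next library was wide for *Aqp1* and narrow for *Kl*. *Kcne2* was at 0.463 and 0.469 CPM, from 17 and 18 counts, against 0 to 0.388 CPM.

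The other 5 genes did not follow the pair. *Calml4* and *Sostdc1* were high in wt female 4, at 0.729 and 0.573 CPM, but stood at 0.327 and 0.381 CPM in del/+ female 1, inside the range of the other 14. *Otx2* was at 0.272 and 0.234 CPM, near the line's median of 0.209 CPM. *Clic6*, at 7.57 and 9.35 CPM, lay at or below its line median of 9.54 CPM. *Enpp2*, at 211 and 251 CPM, lay on both sides of its median of 237 CPM.

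**Figure D2:**
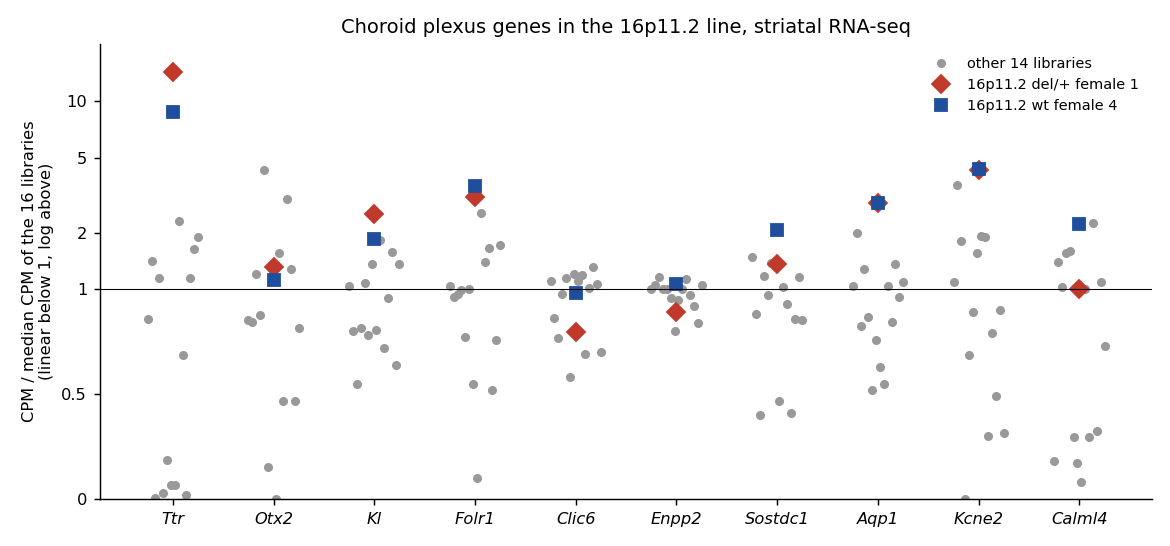
Each of the 10 genes in the 16 RNA-seq libraries of the 16p11.2 line, as CPM divided by the gene's median over the line (linear below 1, log above). The libraries labelled del/+ female 1 (red diamonds) and wt female 4 (blue squares) are the 2 highest points for Ttr, Kl, Folr1, Aqp1 and Kcne2, and lie among the other 14 (grey) for Otx2, Clic6 and Enpp2.

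A second list of 25 genes of the same epithelium, of which 24 were in the RNA-seq tables and 23 had 10 or more counts over the line, gave 5 genes with the same pair of highest libraries. These were *Tmem72* (1.33 and 1.80 CPM, against at most 0.941 CPM in the other 14), *Prlr*, the prolactin receptor (1.53 and 1.59 CPM, against at most 1.18 CPM), *Slc4a5*, a sodium bicarbonate cotransporter (0.681 and 0.833 CPM, against at most 0.389 CPM), *Cldn2*, a tight junction claudin (0.436 and 0.599 CPM, against at most 0.194 CPM), and *Kcnj13*, a potassium channel (0.191 and 0.260 CPM, against at most 0.102 CPM). The summed level of the second list, 146 and 152 CPM, stayed within the 133 to 180 CPM of the other 14 libraries. Most of that sum came from *Car12*, *Ace*, *Cab39l* and *Igfbp2*, with means of 50.6, 38.6, 28.3 and 13.2 CPM over the 32 libraries, and none of these had its highest values in the pair. The 10 genes summed to 324 and 329 CPM in the pair and to between 206 and 285 CPM elsewhere. *Enpp2* made up most of these sums, at 211 and 251 CPM in the pair against 190 to 275 CPM elsewhere. *Ttr*, by which the pair was chosen, held 97.8 and 60.2 CPM of the pair's sums, against at most 15.8 CPM elsewhere. The higher sums are therefore no separate sign of a joint rise.

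No gene of the lists for neighbouring tissue had its 2 highest values in this pair. That covered 15 ependymal genes, 12 meningeal fibroblast genes, 12 striatal projection neuron genes, and 8 each for cortical excitatory neurons, thalamic or septal neurons, oligodendrocytes, astrocytes, brain endothelium and microglia, with 5 for red blood cells. Ependymal cells line the ventricle beside the choroid plexus, and their list, led by *Dnah6*, *Foxj1* and *Rarres2*, summed to 29.6 CPM in del/+ female 1 and 44.6 CPM in wt female 4, against 21.8 to 60.3 CPM in the other 14. The meningeal list summed to 56.1 and 54.6 CPM, against 38.8 to 96.7 CPM.

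In the 3g line the 2 libraries with the highest *Ttr*, del/+ male 27 and wt female 39, shared no such pattern. *Ttr*, by which they were chosen, was the only one of the 10 genes, and *Kcnj13* the only one of the second list, for which they were the 2 highest, against 0.383% of all 28735 genes. Library del/+ male 27 alone held the highest value of the line for *Otx2* (0.683 CPM, 21 counts), *Folr1* (0.358 CPM, 11 counts) and *Calml4* (0.553 CPM, 17 counts), which makes 4 of the 10 genes with *Ttr*, against 5.46% of all genes. *Ttr* again counts by construction. It was also highest for 5 of 23 genes of the second list, 7 of 15 ependymal, 3 of 8 thalamic or septal, 3 of 5 red blood cell and 1 of 8 astrocyte genes, and for none of the other lists. Its ependymal sum was 57.4 CPM, against a median of 43.9 CPM over the 14 libraries outside the pair, and the part of these tissues in its values was not tested.

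Over the 16 libraries of each line, Spearman's rho with *Ttr* is given as a description, since the libraries share genotype groups and differ in depth, and low counts weaken it. In the 3g line it was 0.69 for *Calml4*, 0.67 for *Folr1*, 0.66 for *Otx2*, 0.64 for *Sostdc1* and 0.60 for *Enpp2*. In the 16p11.2 line the order differed, with 0.59 for *Aqp1*, 0.51 for *Folr1*, 0.51 for *Kl* and 0.42 for *Sostdc1*, and -0.12 for *Otx2* and -0.06 for *Enpp2*. *Folr1* and *Sostdc1* were the 2 genes above 0.4 in both lines. *Clic6* was at -0.01 in the 3g line and -0.09 in the 16p11.2 line, and *Kl* at -0.003 in the 3g line. The lowest values of *Clic6* and *Kl* in any RNA-seq library were 5.57 and 1.06 CPM, while *Ttr* fell to 1 count. Whether choroid plexus was the main source of *Clic6* and *Kl* in this tissue was not tested. *Kcne2* was at 0.31 and 0.29. Over the 15 libraries of the 16p11.2 line without del/+ female 1, rho was 0.50 for *Aqp1*, 0.41 for *Folr1*, 0.40 for *Kl*, 0.40 for *Sostdc1* and 0.14 for *Kcne2*. Over the 15 of the 3g line without wt male 17 it was 0.75 for *Otx2*, 0.70 for *Folr1*, 0.68 for *Calml4*, 0.68 for *Sostdc1* and 0.55 for *Enpp2*.

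Among the 14580 other genes with a mean of at least 1 CPM in each line, the 10 most like *Ttr*, by the smaller of their rho in the 2 lines, were *Gosr1* (0.54), *Rnf26*, *Myom3*, *Tex52*, *Cabcoco1*, *Rhobtb3*, *Cisd2*, *Bzw2*, *Sema3a* and *Mxd1* (0.43). None was on a choroid plexus list. Of the 10 choroid plexus genes followed here, only *Kl*, *Clic6* and *Enpp2* reached that mean, and they stood at places 3545, 6026 and 5078. The others, apart from *Ttr* itself, were too low to enter the ranking. Genes of the second list that did enter, among them *Car12*, *Ace*, *Cab39l* and *Igfbp2*, were not among the 10 most like *Ttr* either.

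*Clic6* and *Kl* had higher medians in the 3g line. *Clic6* was between 13.0 and 27.3 CPM in 15 of the 16 libraries of the 3g line and between 5.57 and 12.5 CPM in the 16 of the 16p11.2 line. *Kl* had a median of 4.07 CPM in those 15 and 1.93 CPM in the 16p11.2 line, with ranges that overlapped. The remaining 3g library, wt male 17, had *Clic6* at 11.16 CPM and *Kl* at 2.18 CPM, inside the range of the 16p11.2 libraries for both. In the lysate RNA the 2 lines overlapped for *Clic6*, at 7.02 to 9.91 CPM and 6.10 to 9.86 CPM. They also overlapped for *Kl*, at 1.39 to 2.26 CPM in the 3g line and 1.82 to 3.22 CPM in the 16p11.2 line. The lysate medians of *Kl* went the other way, at 2.10 CPM in the 3g line and 2.39 CPM in the 16p11.2 line. The lines were deposited in separate tables, and line and preparation cannot be told apart.

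Calls were made by edgeR's quasi-likelihood test, where the p adjusted after Benjamini and Hochberg over all tested genes was under 0.05. No gene of the 10 was called in any comparison of del/+ with wt, and DESeq2 called none either. The share of all tested genes that was called was 0% in 3g males (DESeq2 called 1 gene, and 274 genes had an unadjusted p under 0.05), 0.00526% in females of that line, and 0.106% and 0.144% in males and females of the 16p11.2 line. In the lysate RNA it was 0.0209% in the 3g line and 0.133% in the 16p11.2 line, and in the footprints 0.0132% and 0.117%. For the interaction of genotype and sex it was 0% in both lines (0 and 3 genes by DESeq2, and 533 and 818 genes at an unadjusted p under 0.05). After the filter on low counts 8 of the 10 genes were tested in each sex of the 3g line and 7 in each sex of the 16p11.2 line. At an unadjusted p under 0.05 stood 5 of the 8 in 3g females and none in the other 3 RNA-seq comparisons.

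In 3g females all 8 tested genes were lower in del/+ than in wt, with a median log2 fold change of -0.38 against -0.0012 over all tested genes. *Ttr* averaged 0.594 ± 0.676 CPM over the del/+ libraries and 5.21 ± 4.36 CPM over the wt libraries (SD, n = 4 in both), and its log2 fold change was -3.02 ± 0.70 (SE, edgeR adjusted p = 0.216). *Otx2* was 0.0713 ± 0.0659 CPM in del/+ and 0.350 ± 0.110 CPM in wt, a log2 fold change of -2.14 ± 0.50 (edgeR adjusted p = 0.216). Neither passed the threshold. *Sostdc1* had a log2 fold change of -0.88 ± 0.27, *Kcne2* of -0.44 ± 0.33, *Clic6* of -0.33 ± 0.15 and *Kl* of -0.30 ± 0.10. *Enpp2* and *Aqp1* were nearest to no difference, at -0.14 ± 0.06 and -0.10 ± 0.29. The 8 genes include *Enpp2*, *Clic6* and *Kl*, which stayed present in libraries where *Ttr* was near its floor.

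For *Ttr*, *Otx2* and *Sostdc1*, 3 of the 8, every del/+ female was below every wt female, which held for 3.64% of all tested genes. The 5 at an unadjusted p under 0.05, all lower, were *Ttr*, *Otx2*, *Sostdc1*, *Kl* and *Enpp2*, against 5.73% of all tested genes lower at that p. When each library was left out in turn, between 6 and 8 of the 7 or 8 tested genes stayed lower. The log2 fold change of *Ttr* then lay between -4.19 (without del/+ female 37, edgeR adjusted p = 0.0777) and -2.24 (without wt female 39, edgeR adjusted p = 0.0600). Over all of these fits its edgeR adjusted p ran from 0.0600 to 0.579. With no filter on low counts, all 10 genes were tested and lower, and *Ttr* and *Otx2* were called by edgeR (adjusted p = 0.00117 and 0.0298).

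Other measures moved with these values. The del/+ females were sequenced less deeply, at 24332636 to 36821127 counts against 42289823 to 65529807 in wt, with no overlap. The ependymal list summed to 29.3, 35.4, 28.7 and 41.8 CPM in del/+ females 28, 31, 36 and 37 and to 50.5, 40.6, 49.0 and 39.2 CPM in wt females 29, 30, 35 and 39. All 14 tested genes of that list were lower in del/+, with a median log2 fold change of -1.01, and none was called. The cortical excitatory neuron list went the other way, at 606, 766, 561 and 270 CPM in del/+ and 266, 224, 267 and 697 CPM in wt, with 7 of 8 genes higher and a median of 0.75. The part of depth, of ependyma and of cortical tissue in the difference of *Ttr* and *Otx2* was not tested.

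The second choroid plexus list did not share the direction to the same extent in 3g females, with 11 of 18 tested genes lower, a median log2 fold change of -0.17 and none called. Its sum was 155, 152, 153 and 161 CPM in del/+ and 151, 150, 158 and 143 CPM in wt females. Of the further lists, oligodendrocyte genes were lower in 8 of 8 (median -0.14), microglial genes in 7 of 8 (median -0.09), meningeal fibroblast genes in 10 of 12 (median -0.18) and brain endothelial genes in 6 of 8 (median -0.0074). Red blood cell genes were higher in 5 of 5 (median 0.15), and striatal projection neuron genes in 8 of 12 (median 0.016). Astrocyte genes were lower in 5 of 8 and thalamic or septal genes in 4 of 7, with medians of -0.021 and -0.025. No gene of any list was called in 3g females.

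In 3g males 7 of the 8 tested genes had estimates above 0, and none stood at an unadjusted p under 0.05. *Calml4* was tested here and not in females, and *Sostdc1* in females and not here. *Ttr* was 5.91 ± 5.58 CPM in del/+ and 2.45 ± 3.49 CPM in wt (n = 4 each), a log2 fold change of 1.38 ± 1.01 (edgeR adjusted p = 0.974). Without wt male 17, whose 7.64 CPM was the highest among the wt males, it was 3.10, and without del/+ male 27 it was 0.63. *Otx2* had a log2 fold change of 0.80 ± 0.40. *Aqp1* had means of 0.552 ± 0.112 CPM over del/+ and 0.369 ± 0.0485 CPM over wt males. It was the 1 gene of the 8 for which every del/+ male was above every wt male, against 0.692% of all tested genes. The margin was narrow, with the lowest del/+ male at 0.439 CPM and the highest wt male at 0.436 CPM. The highest del/+ value, 0.690 CPM, came from 9 counts in male 25, the library with the fewest total counts. The log2 fold change of *Aqp1* was 0.55 ± 0.25 (edgeR adjusted p = 0.974). Beside these, all 12 meningeal fibroblast genes had estimates above 0 (median 0.34, against 0.31 for the 8 genes), with sums of 50.5, 76.0, 72.0 and 83.9 CPM in del/+ males 25, 27, 32 and 33 and 51.2, 59.8, 45.9 and 74.9 CPM in wt males 17, 24, 26 and 34. All 8 cortical excitatory neuron genes had estimates below 0 (median -0.54), with 1088 CPM in wt male 17 and 154 to 461 CPM in the other 7. The ependymal list had 12 of 14 below 0 (median -0.11) and the second choroid plexus list 12 of 18 above 0 (median 0.082). No gene of these lists was called, and the part of these tissues was not tested.

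The interaction of genotype and sex in the 3g line, female minus male, was below 0 for all 9 tested genes, and none was called. It was -4.42 ± 1.41 for *Ttr*, -2.93 ± 0.68 for *Otx2* and -1.05 ± 0.45 for *Sostdc1* (log2 ± SE, edgeR adjusted p = 0.901 for each), the 3 of the 9 at an unadjusted p under 0.05. In the 16p11.2 line it was above 0 for 6 of 9, with 2.27 ± 2.002 for *Ttr* (edgeR adjusted p = 0.845). Without the library labelled del/+ female 1 that of *Ttr* was -0.19.

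The 16p11.2 line gave estimates of opposite sign for *Ttr* in males and females. In males it was 2.47 ± 3.67 CPM in del/+ and 8.12 ± 5.76 CPM in wt (n = 4 each), a log2 fold change of -1.75 ± 1.12 (edgeR adjusted p = 0.751). With 1 library left out in turn this stayed below 0, between -3.68 (without del/+ male 1) and -1.35 (without del/+ male 2). In females it was 28.4 ± 46.4 CPM in del/+ and 20.3 ± 27.4 CPM in wt, a log2 fold change of 0.49 ± 1.29 (edgeR adjusted p = 0.998). Without del/+ female 1 the female value turned to -1.98, and without wt female 4 it was 2.08. Of 7 tested genes, 2 had estimates above 0 and 5 below in each sex, with *Sostdc1* tested in males only and *Folr1* in females only. In females these counts were 1 and 6 without del/+ female 1, and 6 and 1 without wt female 4.

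**Figure D3:**
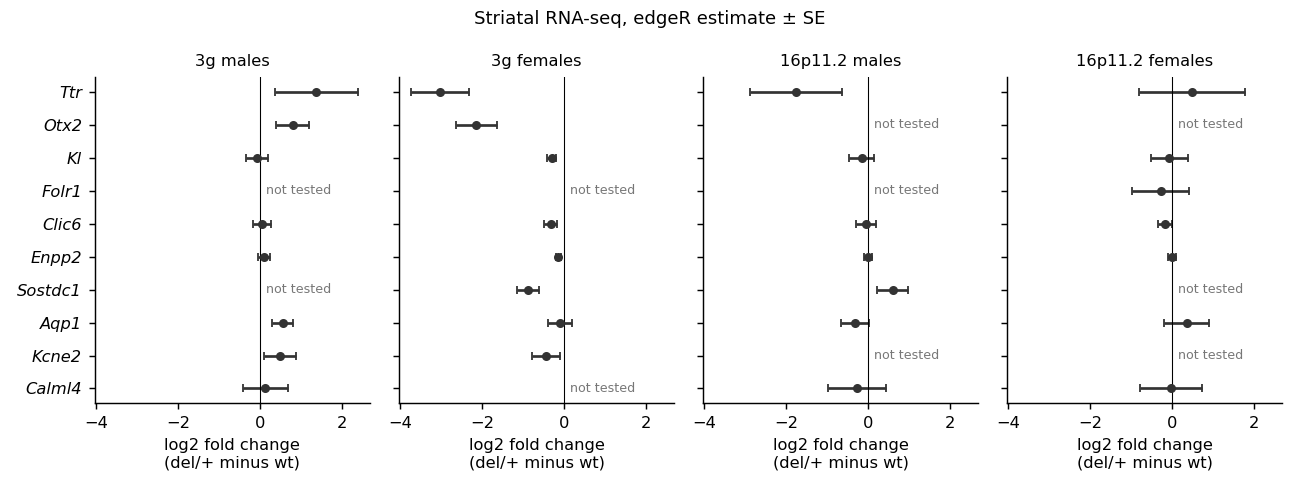
Log2 fold change (del/+ minus wt) of each of the 10 genes in the 4 RNA-seq comparisons, with the standard error as a bar, from edgeR; genes below the filter on low counts are marked as not tested. In 3g females all 8 estimates lie below 0, led by Ttr at -3.02 and Otx2 at -2.14, and in the other 3 comparisons the standard errors of Ttr exceed 1 log2 unit.

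In the lysate RNA *Ttr* also came and went between animals. In the 16p11.2 line it was at 7.87 and 9.07 CPM (107 and 141 counts) in wt animals 2 and 3 and at 5.32 CPM (76 counts) in del/+ animal 3. It was at 0.566 CPM in wt animal 4 and 0.659 CPM in del/+ animal 2, and at 0 counts in wt animal 1 and del/+ animal 1. Those 0 counts allow up to 0.168 and 0.196 CPM at 3 counts before TMM scaling, a limit that covers counting error only. Both genotypes thus held an animal with no *Ttr* RNA count, and the log2 fold change was -1.11 ± 1.18 (SE, edgeR adjusted p = 0.990, 3 del/+ and 4 wt animals). With 1 animal left out in turn it lay between -3.59 (without del/+ animal 3) and -0.44 (without wt animal 3). In the 3g line 5 of 6 animals were between 0.157 and 0.412 CPM, and del/+ animal 3 was at 1.72 CPM (32 counts).

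*Otx2* was at 2.12, 0.898 and 0.980 CPM in the lysate RNA of 16p11.2 del/+ animals 1 to 3, and at 0.158, 0.883, 0.386 and 0.754 CPM in wt animals 1 to 4. Every del/+ animal was above every wt animal, for 1 of 5 tested genes, against 2.69% of all tested genes. The log2 fold change was 1.32 ± 0.54 (SE, edgeR adjusted p = 0.990), and 0.82 without del/+ animal 1. This animal had the highest *Otx2* of the line and no *Ttr* count, and wt animal 1 had the lowest *Otx2* and no *Ttr* count either.

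The footprints, a readout of ribosome-bound mRNA that played no part in choosing the genes, held few reads of these genes. Over 13 animals there were 36 footprints of *Ttr*, 203 of *Otx2*, 59 of *Kl*, 61 of *Clic6* and 694 of *Enpp2*, and between 2 and 11 for each of *Folr1*, *Sostdc1*, *Aqp1*, *Kcne2* and *Calml4*. *Enpp2* alone passed the filter on low counts, with a log2 fold change of 0.18 ± 0.24 in the 3g line (edgeR adjusted p = 0.899) and -0.20 ± 0.26 in the 16p11.2 line (edgeR adjusted p = 0.962).

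*Ttr* footprints were few and uneven. Among 16p11.2 animals, wt animals 3 and 2, with the most *Ttr* RNA, had 13 and 9 footprints (28.3 and 22.1 CPM), wt animals 1 and 4 had 2 each, and del/+ animals 1, 2 and 3 had 0, 0 and 1. In the 3g line, del/+ animal 3 had 7 (10.3 CPM), del/+ animal 2 and wt animal 3 had 1 each, and the other 3 animals had none. In the 16p11.2 line, del/+ animal 3 had 76 RNA counts (5.32 CPM) and 1 footprint (3.06 CPM), and del/+ animal 2 had 11 (0.659 CPM) and none. Animal 1 of the wt group had no RNA count and 2 footprints (5.84 CPM). Footprint libraries held 342052 to 678130 counts, against 15102576 to 19122488 in the lysate RNA. At that depth so few footprints cannot show whether RNA and footprints went together in these animals. In each line the *Ttr* RNA values fell into separate clusters, with 1 gap of 0.768 (3g) and 0.579 (16p11.2) of the whole log2 range, so no correlation between RNA and footprints is given and the relation could not be tested.

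A single footprint value stood alone. *Otx2* had 160 footprints (393 CPM) in 16p11.2 wt animal 2, against 1 to 9 footprints (2.84 to 16.7 CPM) in each of the other 12 animals. The lysate RNA of the same animal held 12 *Otx2* counts (0.883 CPM), within the range of the others. Of 17916 genes with a footprint, 2 (*Otx2* and *Cbx8*) were at 50 CPM or more in this animal and at least 10 times as high as in any other animal. Without the filter on low counts this made *Otx2* a call in the 16p11.2 footprints (log2 fold change -3.46, edgeR adjusted p = 2.93e-12), with most of the line's *Otx2* footprints in that animal.

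**Figure D4:**
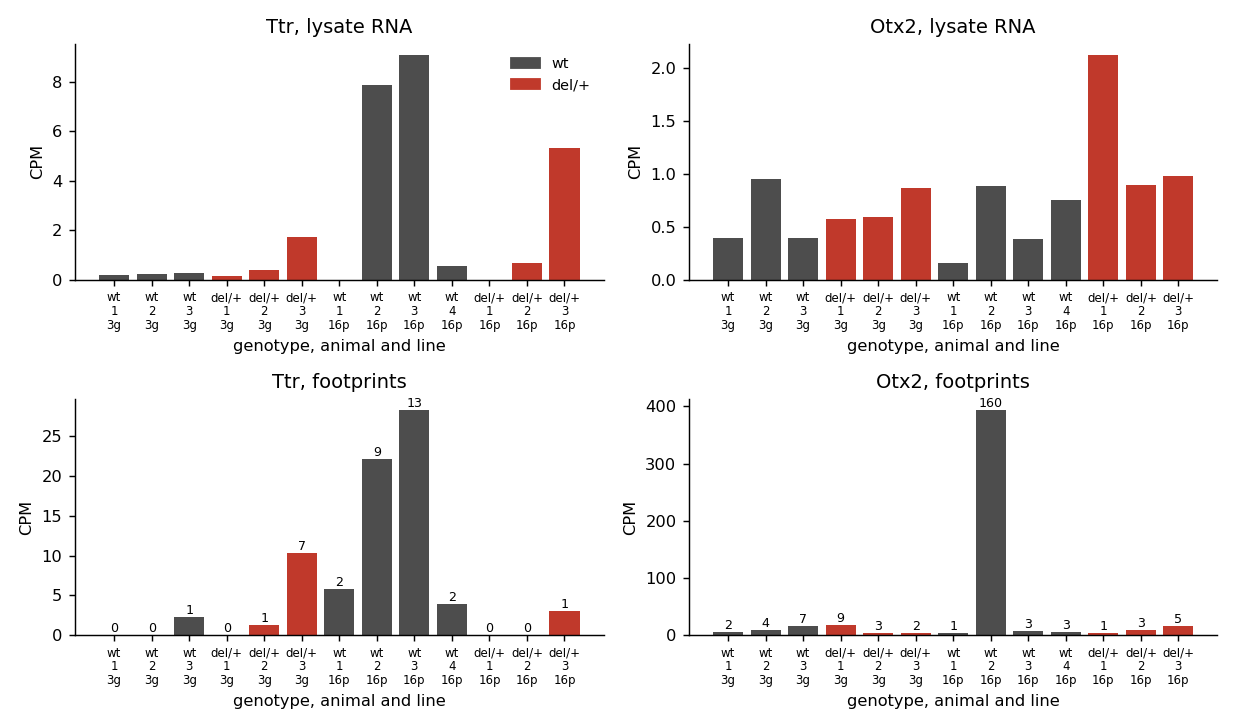
Ttr (left) and Otx2 (right) in lysate RNA (top) and footprints (bottom) of the same 13 animals, in CPM, with wt in grey, del/+ in red and the number of footprints above each lower bar. Ttr footprints peak in 16p11.2 wt animals 2 and 3, which also have the highest Ttr RNA, and Otx2 footprints stand at 160 in 16p11.2 wt animal 2 against at most 9 in any other.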

How the data were processed

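The deposited values were counts per gene, not normalized. The authors made the RNA-seq counts with the bcbio-nextgen pipeline from ribosomal RNA depleted, stranded libraries, and the submitters' processing notes name HTSeq and mm10 for them, and Bowtie2 and mm39 for the lysate RNA and footprints; versions, annotation and the strand setting of the counting are not given in the sources used here. Symbols were assigned to 54409 of 54532 gene IDs of the RNA-seq tables from a table of names. Each column was matched to a sample by its label.

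The 10 genes and all marker lists were chosen with earlier results of these data known, as were the tests and alternatives. Named were the 10 genes, up to 4 examples of a list, and the 10 genes most like *Ttr* by the smaller Spearman rho of the 2 lines. The 5 genes of the second choroid plexus list and *Cbx8* were named after their values were seen.

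Within each line, sex and assay, del/+ was compared with wt using edgeR 4.0.16 (R 4.3.3): filterByExpr, TMM, glmQLFit and glmQLFTest, with Benjamini-Hochberg adjustment over all genes tested and a threshold of 0.05. The interaction was fitted over the 16 libraries of a line. The procedure was tested on data simulated from the 16p11.2 male RNA-seq libraries, with the same spread for every gene. Changes were put only into genes with higher counts. It was not tested for changes in genes of few counts, for the lysate RNA and footprints, or for the interaction. Separate animals per library are implied by the labels' numbers but not stated, so p-values measure the spread between these samples. DESeq2 1.42.0 was an alternative.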

Additional observations from a re-analysis of the deposited data

Results flagged for a closer look

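Each of the 10 genes was checked for single samples far from the other 3 in its group of 4, by the gap to the nearest sample as a share of the group's range (Dixon's test at the 95% level). Of 100 groups, 8 had such a sample. The nominal rate of 1 in 20 assumes independent values with a normal spread. These groups share libraries and many hold few counts, so the 8 cannot be compared with that rate. The screen describes these libraries only, since *Ttr* was known to vary between them when the genes were chosen. Among RNA-seq libraries, *Ttr* was at 97.8 CPM in 16p11.2 del/+ female 1 (next 9.80 CPM), at 7.93 CPM in 16p11.2 del/+ male 1 (next 1.29 CPM) and at 7.64 CPM in 3g wt male 17 (next 1.21 CPM). *Folr1* was at 0.790 CPM in 16p11.2 del/+ female 1 (next 0.267 CPM). In the footprints of 16p11.2 wt animals, *Otx2* was at 393 CPM in animal 2 (next 6.52 CPM) and *Kl* at 28.3 CPM, from 13 footprints, in animal 3 (next 7.83 CPM). *Sostdc1* at 5.88 CPM and *Kcne2* at 1.96 CPM in animal 4, from 3 footprints and 1 footprint, stood against 0 in the other 3, where the gap equals the whole range by construction. The sources of these values were not tested.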

How the results depend on the processing

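The count of 0 called genes among the 10 was the same under DESeq2, RLE scaling, an adjusted p under 0.10, a fit over all libraries of a line and the loss of any 1 library. With no filter on low counts it was 2 in 3g females (*Ttr* and *Otx2*) and 1 in the 16p11.2 footprints (*Otx2*). Of 59 fold changes of single genes, 24 changed sign under at least 1 alternative and 35 under none. Leaving out 1 library in turn, *Aqp1* in 3g females lay between -0.39 (without del/+ female 36) and 0.093 (without del/+ female 28), *Ttr* in 16p11.2 females between -1.98 (without del/+ female 1) and 2.08 (without wt female 4), and its interaction with sex in that line between -0.19 (without del/+ female 1) and 4.19 (without del/+ male 1). With Pearson's r in place of rho, 4 of the 10 genes most like *Ttr* were shared. Over all genes, the calls in 3g females went from 1 to 158 with no filter, to 109 by DESeq2, and to 175 without wt female 39. With log2(*Ttr* CPM + 1) as a covariate, chosen after seeing the data, there were 0 calls in 3g females, 17 in 16p11.2 males (19 before) and 24 in 16p11.2 females (26 before), and 0 in the 16p11.2 footprints (7 before). With the planned covariate, the summed CPM of the 10 genes, these calls were 0, 18, 27 and 9 in the same order. In 3g females and the 16p11.2 footprints, *Ttr* was lower in every del/+ library than in every wt library. There *Ttr* as a covariate goes with genotype, and a loss of calls cannot be told apart from that. The cause was not tested.

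The 16p11.2 RNA-seq labels number both genotypes from 1 to 4. Correlations of the deviations of same-numbered libraries lay between -0.24 and 0.12. The labels do not say whether these libraries share more than a number, and such correlations cannot settle it. With the replicate block, 0 of the 10 genes were called in either sex, *Ttr* in females was -0.18, and the calls over all genes were 14 in males and 22 in females. No paired analysis was possible for the other comparisons because their numbers are not shared between genotypes. Correlations of *Ttr* footprints with lysate RNA, and their alternatives, were not run, since the animals fell into clusters. Depth limits the genes of few counts and most of the footprints.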
